A study of Homo sapiens with 11 samples.

Results

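The transcripts of 8 genes that set the activity of the antioxidant response were followed across a dose series and its controls. They are NFE2L2 and NFE2L1, which encode the transcription factors NRF2 and NRF1; KEAP1 and SQSTM1, which act on NRF2 protein; and BACH1, MAFF, MAFG and MAFK, which share its DNA sites. The genes were taken by symbol from a table of 38021 named genes, and all 8 passed the filter on low counts. The cells were HEK293T, an established human embryonic kidney line that the labels give as wild type (WT). They were exposed for 6 h to vehicle (0.1% DMSO), to Tg at 500 nM, to AA147 at 10 µM, or to AA132 at 0.1, 0.3, 1, 3, 6, 10, 15 or 30 µM. Tg is thapsigargin, a blocker of the endoplasmic reticulum (ER) calcium pump that causes ER stress, and AA147 and AA132 are small molecules studied for their effects on ER protein homeostasis. Each of the 11 conditions has 1 labelled sample and 3 numbered columns of counts, called libraries below.

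NRF2 is made continuously and, in unstressed cells, is bound by KEAP1, an adaptor that brings it to a CUL3 ubiquitin ligase for destruction. Electrophiles and oxidants modify KEAP1 cysteines, and the p62 protein made from SQSTM1 can sequester KEAP1. NRF2 then accumulates, pairs with a small MAF protein (MAFF, MAFG or MAFK) and binds antioxidant response elements at genes such as HMOX1 and GCLM. BACH1 also pairs with small MAF proteins, occupies many of the same sites as a repressor, and leaves them when it binds heme. NRF1 is an ER membrane protein that is processed and released when the proteasome is impaired, and it drives proteasome subunit genes. KEAP1 control acts on NRF2 protein, which RNA counts do not show.

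The 33 libraries held 32.27 to 37.96 M counts, with the second lowest at 36.36 M. Libraries of 1 condition differed by more than counting error, with a chi-square per degree of freedom of 4.67 to 64.5, so none was treated as a copy of another. The highest values were those of library 1 against libraries 2 and 3 in 3 conditions. They were 64.5 and 49.9 in vehicle, 39.1 and 36.4 in AA132 at 10 µM, and 24.8 and 23.9 in AA147. Libraries 2 and 3 of these conditions gave 7.94, 6.89 and 5.06. Whether the 3 libraries of a condition came from separate cultures is not given in the labels, so p-values measure only the spread between these libraries, which may be technical. In a bulk lysate, fewer expressing cells and less RNA per cell cannot be told apart. Among markers of HEK293T, KRT8 stood at 624 to 1012 CPM (read counts scaled to library size) and PAX2 at 0.407 to 1.53 CPM, while PTPRC, CD3E, ALB, CDH5, COL1A2 and DCN of other cell types did not exceed 0.218 CPM.

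Some libraries stood apart from their conditions, and the members moved with them. HMOX1, a heme-degrading enzyme gene and classic NRF2 target, had 39.8 CPM in AA132 1 µM library 1 against 11.5 and 12.1 CPM in libraries 2 and 3. At 3 µM it had 14.2 CPM in library 3 against 49.3 and 43.9 CPM in libraries 1 and 2. So library 1 of 1 µM was above, and library 3 of 3 µM below, the other libraries of its dose. SQSTM1 and KEAP1 had the same order, and KEAP1 had 76.1 CPM against 60.7 and 64.0 CPM at 1 µM, and 68.5 CPM against 73.2 and 80.0 CPM at 3 µM. Vehicle library 1 had 19.6 CPM of BACH1 against 33.2 and 33.8 CPM, and 2.74 CPM of the NRF2 target SLC7A11 against 6.35 and 6.02 CPM. It was the highest vehicle library for SQSTM1 and KEAP1 and the lowest for NFE2L2. Whether the 1 and 3 µM columns that stood apart carry each other's labels was not tested, and every value at these doses is given as labelled. Where leaving out these libraries changed the call of a member, the value without them is given below.

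The promoters of SQSTM1, KEAP1 and MAFF are shown because the first 2 had the clearest dose relation and the last 2 hold the core of the antioxidant response element. The windows, from RefSeq on GRCh38.p14, run from 250 bases before to 50 bases after a transcript start and are written 5′ to 3′ on the gene's strand, with matches to the core in capitals. KEAP1 is on the minus strand, and MAFF and SQSTM1 are on the plus strand.
KEAP1, chr19:10502722-10503021: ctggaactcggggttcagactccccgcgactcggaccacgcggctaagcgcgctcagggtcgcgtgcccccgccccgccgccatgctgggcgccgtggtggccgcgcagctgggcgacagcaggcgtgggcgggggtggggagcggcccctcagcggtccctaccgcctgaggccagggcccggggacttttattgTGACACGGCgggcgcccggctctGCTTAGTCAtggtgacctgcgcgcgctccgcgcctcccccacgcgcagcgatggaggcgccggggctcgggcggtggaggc
MAFF, chr22:38201744-38202043: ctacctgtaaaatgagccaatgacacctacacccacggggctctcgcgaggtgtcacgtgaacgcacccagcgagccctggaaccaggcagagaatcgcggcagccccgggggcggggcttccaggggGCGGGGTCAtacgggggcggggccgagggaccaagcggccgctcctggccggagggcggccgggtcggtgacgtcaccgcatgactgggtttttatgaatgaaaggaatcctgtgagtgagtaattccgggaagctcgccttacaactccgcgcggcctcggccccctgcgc
SQSTM1, chr5:179820655-179820954: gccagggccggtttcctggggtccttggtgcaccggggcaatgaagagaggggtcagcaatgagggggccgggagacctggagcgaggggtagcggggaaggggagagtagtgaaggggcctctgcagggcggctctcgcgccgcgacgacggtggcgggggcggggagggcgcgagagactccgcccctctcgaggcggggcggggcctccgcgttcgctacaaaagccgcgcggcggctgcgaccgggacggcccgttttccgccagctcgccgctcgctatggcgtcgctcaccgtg
The core was searched as TGACNNNGC on both strands, and 13.3% of the 35116 promoter windows in the RefSeq table hold it. Of 15 windows of 7 members, 2 hold it, a share close to that of all windows. They are the KEAP1 window shown, with matches whose first bases lie at -54 and -31 from the start, and the MAFF window, with a match at -122. None of the 3 SQSTM1 windows in the table does. The letters TGAGTCA, an AP-1-like element related to the sites of BACH1 and MAF proteins, are in 4.95% of all windows and in 1 member window, that of BACH1 at chr21:29298672-29298971. The core of the cyclic AMP response element, TGACGTCA, is in 1.85% of windows and in the MAFF window shown, at -54. The ER stress element, CCAAT followed after 9 bases by CCACG, is in 0.0769% of windows and in no member window, and an element of amino acid response genes, TGATGNAA, is in 3.62% and in no member window. A match is a description of the letters and not evidence of binding, and a window without a match does not speak to sites outside it.

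In vehicle the members differed widely in level. Per kilobase of the MANE Select transcript (GENCODE on GRCh38), the order of mean levels was SQSTM1 at 72.1 CPM per kb, NFE2L1 at 52.2, NFE2L2 at 41.9, KEAP1 at 24.7, BACH1 at 5.14, MAFK at 3.18, MAFG at 1.24 and MAFF at 0.179 CPM per kb. Neighbours in this order did not overlap over the 3 vehicle libraries, except BACH1 (3.48 to 6.02 CPM per kb) and MAFK (2.85 to 3.84). The transcripts of NRF2, NRF1, KEAP1 and p62 were thus each above those of BACH1 and of every small MAF gene on this scale. MAFF had only 11 to 43 counts in a library, and its values carry large counting error.

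**Figure D1:**
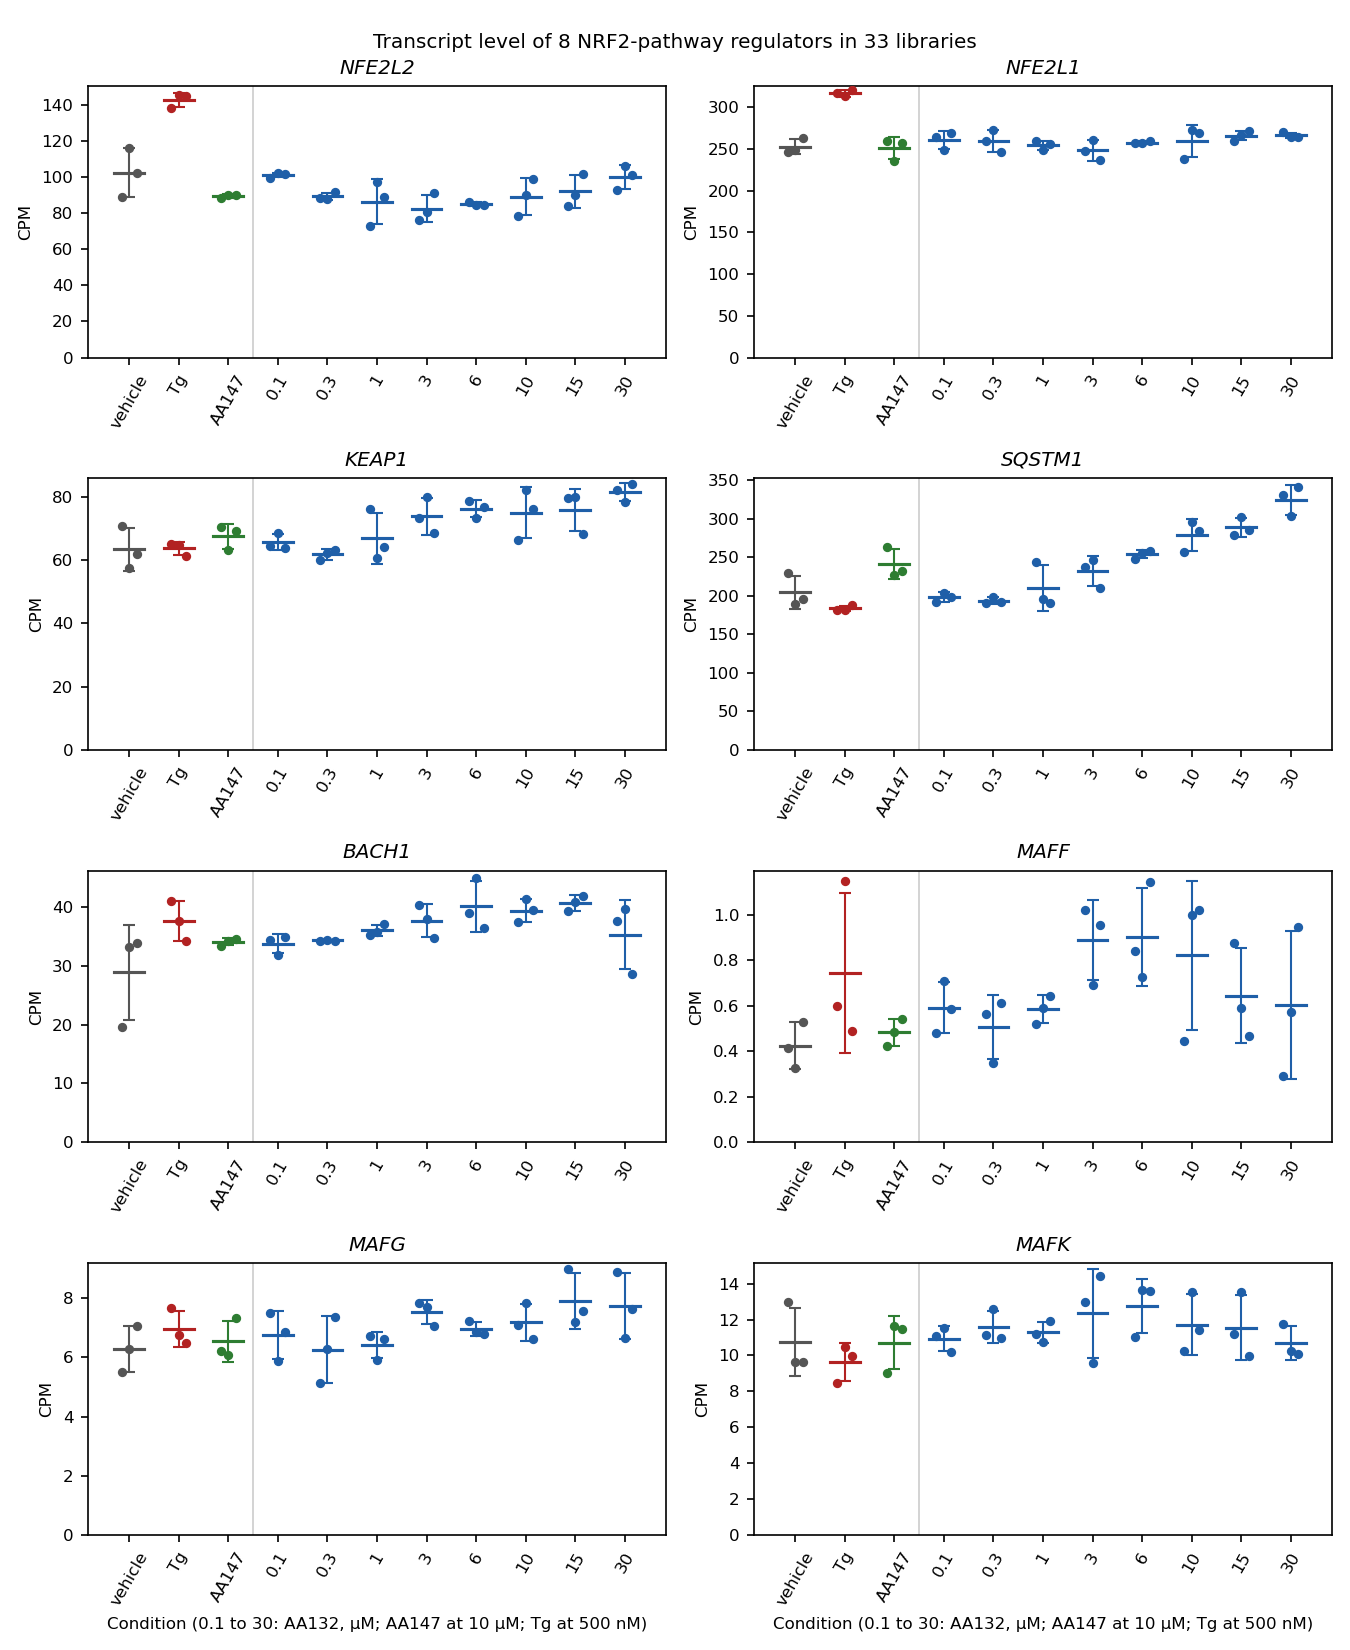
Level of each of the 8 genes in CPM in all 33 libraries (points), with the mean (bar) and SD of 3 libraries, for vehicle, Tg at 500 nM, AA147 at 10 µM and AA132 at 0.1 to 30 µM. SQSTM1 goes from 198 CPM at 0.1 µM to 325 CPM at 30 µM AA132, while NFE2L2 and NFE2L1 are highest in Tg, at 143 and 317 CPM.

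Tg was compared with vehicle to set the response to ER stress beside that to the compounds. It raised the transcripts of the transcription factors NFE2L2 and NFE2L1 and of the repressor BACH1, while KEAP1 and SQSTM1 were not called. In all, 3 of 8 members were higher and 0 lower in edgeR's quasi-likelihood test, where 31.2% of the 17793 genes tested were called and 16.2% were called higher, so the share of members called is close to that of all genes. The median log2 fold change was 0.24 over the members and 0.00 over all genes.

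NFE2L2 (chromosome 2, 177218667 to 177392756, minus strand) had 88.8, 116 and 102 CPM in the vehicle libraries and 138, 145 and 145 CPM under Tg. The groups did not overlap, and all 3 Tg libraries were above every other library of the study. The log2 fold change was 0.48 (SE 0.09, adjusted p = 0.000102, edgeR), a rise of 1.39-fold with a 95% interval of 1.23 to 1.59. NFE2L1 (chromosome 17, 48048329 to 48061545, plus strand) had 247, 249 and 263 CPM in vehicle and 317, 313 and 321 CPM under Tg. Here too the groups were apart, and Tg stood alone above the other 10 conditions. The log2 fold change was 0.33 (SE 0.06, adjusted p = 2.12e-05). Both calls held in all 40 alternative settings, with adjusted p of at most 0.0116 for NFE2L2 and 0.0101 for NFE2L1.

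BACH1 (chromosome 21, 29194071 to 29630751, plus strand) had 19.6, 33.2 and 33.8 CPM in vehicle and 41.0, 37.6 and 34.3 CPM under Tg. The groups did not overlap, but vehicle libraries 2 and 3 were just below the lowest Tg library, and library 1 was far below. Its log2 fold change was 0.38 (SE 0.12, adjusted p = 0.0179), and without vehicle library 1 it was 0.16 (adjusted p = 0.226). The call was also lost without Tg library 1 (0.30, adjusted p = 0.108) and with only the 2 conditions in the fit (0.38, adjusted p = 0.201). SQSTM1 (chromosome 5, 179806398 to 179838078, plus strand) had 229, 189 and 196 CPM in vehicle and 182, 181 and 188 CPM under Tg, the lowest mean of the 11 conditions. It was not called (-0.16, SE 0.08, adjusted p = 0.145), and was called lower without vehicle library 2 (-0.23, adjusted p = 0.0472). KEAP1 (chromosome 19, 10486125 to 10503558, minus strand) had a log2 fold change of 0.01 with a 95% interval of -0.17 to 0.18. The small MAF genes were not called, with 0.81 (SE 0.39) for MAFF, 0.15 (SE 0.13) for MAFG and -0.16 (SE 0.14) for MAFK.

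The 8 doses of AA132 were compared with vehicle one by one and through the slope on log10 dose, which uses no vehicle library. SQSTM1 and KEAP1 rose with dose, whereas NFE2L2 and NFE2L1 were not called. In the slope over 24 libraries, 4 of 8 members rose and 0 fell, where 18.7% of 17554 genes were called and 9.83% were called higher. The rises of SQSTM1 and KEAP1 held in all 31 alternative settings, while those of BACH1 and MAFG did not. The median slope was 0.10 log2 units per 10-fold dose over the members and 0.00 over all genes.

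SQSTM1, whose p62 protein carries ubiquitinated cargo to autophagosomes and binds KEAP1, had the largest slope, with 0.30 on the log2 scale for each 10-fold step in dose (SE 0.03, adjusted p = 4.37e-10). This corresponds to 1.68-fold over the range from 0.1 to 30 µM, with a 95% interval of 1.53 to 1.84. Its libraries had 192, 204 and 199 CPM at 0.1 µM and 191, 199 and 192 CPM at 0.3 µM. They had 244, 196 and 191 CPM at 1 µM, then 238, 247 and 210 CPM at 3 µM. Library 1 at 1 µM and library 3 at 3 µM, which stood apart for HMOX1, are again the outlying ones.

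From 6 µM on every SQSTM1 library was above every vehicle library. The values were 248, 255 and 259 CPM at 6 µM, and 257, 296 and 285 CPM at 10 µM. They were 279, 303 and 286 CPM at 15 µM, and 331, 303 and 341 CPM at 30 µM. Adjacent doses overlapped except 3 and 6 µM, and 15 and 30 µM, where the highest library of the lower dose was just under the lowest of the higher dose. Against vehicle the log2 fold change at 6 µM was 0.31 (SE 0.08, adjusted p = 0.0466). It was 0.45 at 10 µM (adjusted p = 0.00101), while 15 µM gave 0.50 (0.000171) and 30 µM gave 0.67 (9.41e-07). The rise at 30 µM was 1.59-fold with a 95% interval of 1.42 to 1.78, and this call held in all 40 settings. The call at 6 µM was lost without any 1 of the 6 µM libraries or without vehicle library 2 or 3 (adjusted p from 0.113 to 0.166), and in 18 fits that left out a library of another condition (0.0504 to 0.0707). The calls at 10 and 15 µM were lost only in the fits of the 2 conditions alone (0.428 and 0.0848).

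KEAP1 had a slope of 0.14 (SE 0.03, adjusted p = 0.000102), or 1.28-fold from 0.1 to 30 µM (95% interval 1.17 to 1.40). The vehicle libraries had 70.9, 57.4 and 61.9 CPM, and those at 30 µM had 82.3, 78.3 and 84.0 CPM. The groups did not overlap, and the log2 fold change was 0.36 (SE 0.09, adjusted p = 0.0066). This call was lost when only the 2 conditions entered the fit (0.2). At 6, 10 and 15 µM KEAP1 stood at 0.27, 0.24 and 0.26 and was not called. Without vehicle library 1, the high one, it was called at all 3 doses, at 0.36, 0.33 and 0.35 (adjusted p = 0.0186, 0.0284 and 0.0187).

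**Figure D2:**
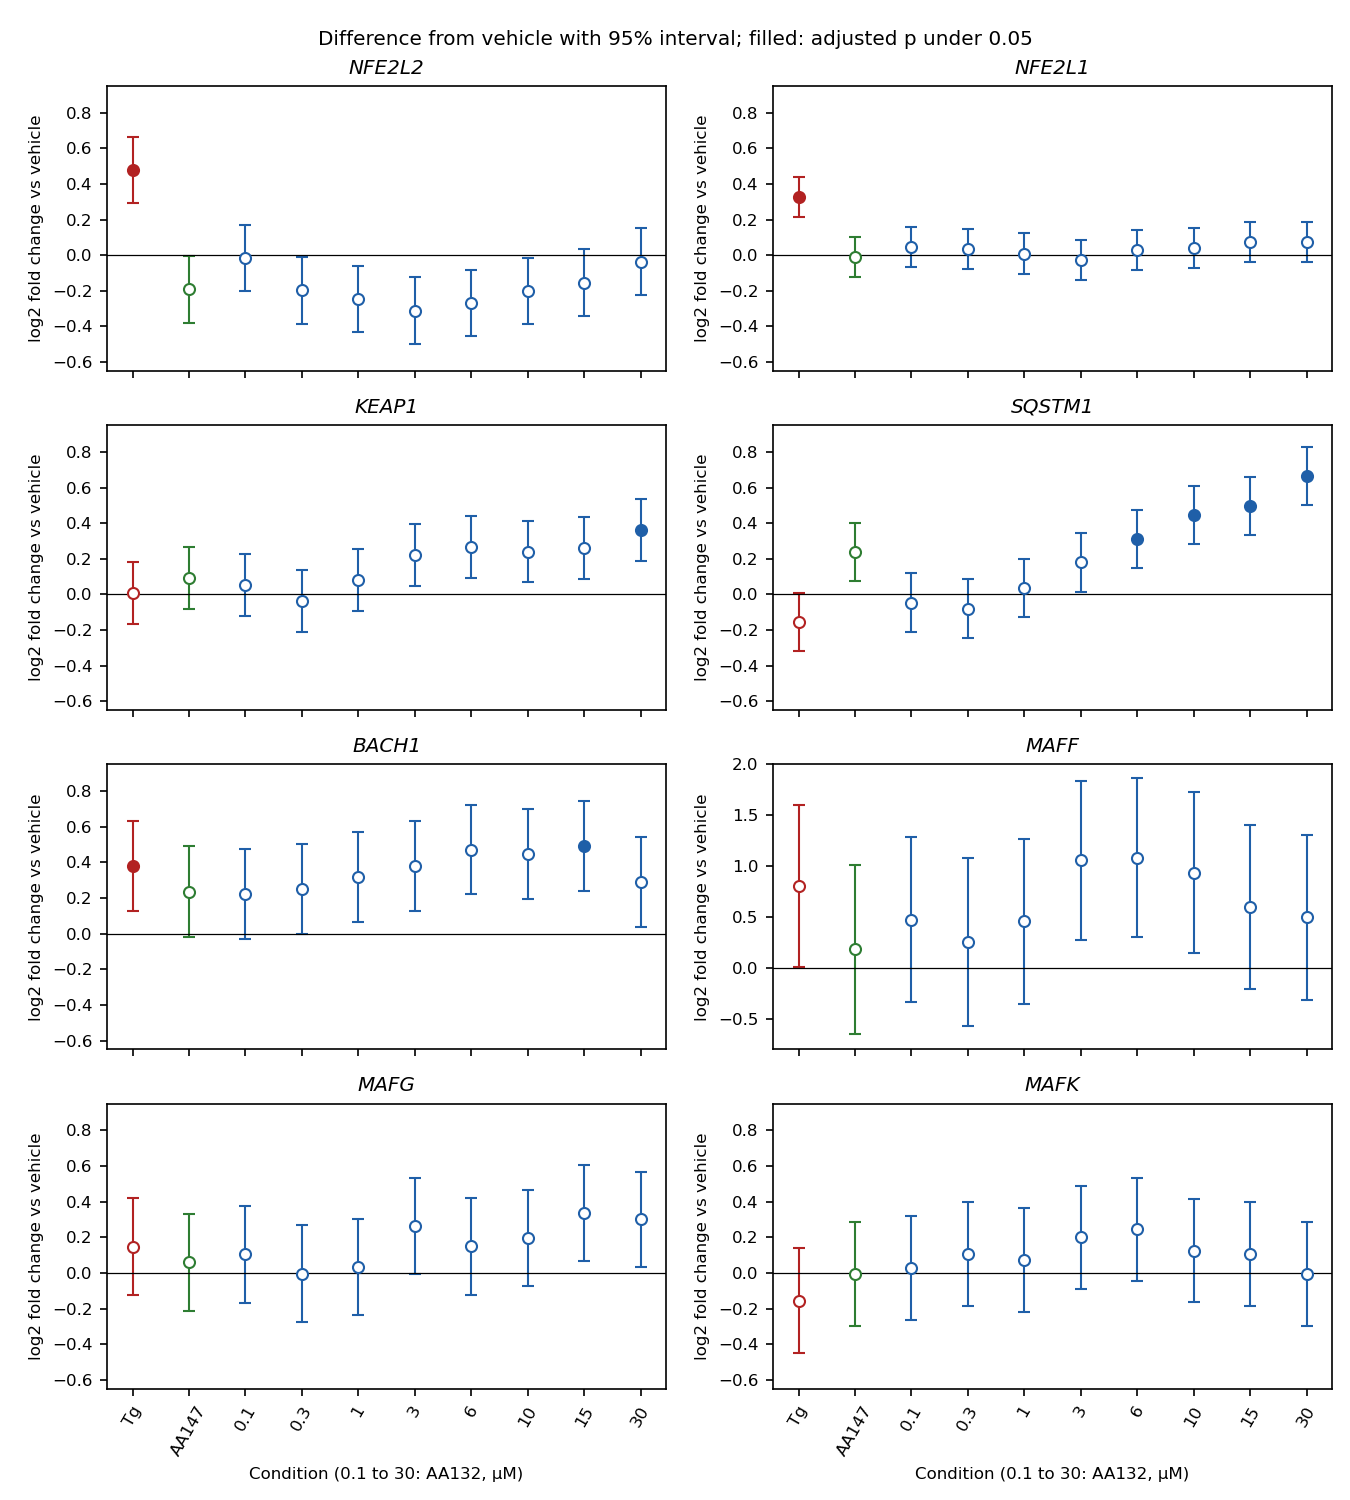
Log2 fold change against vehicle for each of the 8 genes under Tg, AA147 at 10 µM and AA132 at 0.1 to 30 µM, with 95% intervals from the edgeR fit. Filled points passed an adjusted p of 0.05, and MAFF has a wider axis. SQSTM1 is filled from 6 to 30 µM AA132, reaching 0.67, and NFE2L2 and NFE2L1 are filled in Tg alone.

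Counts of called members by dose followed from these 2 genes and BACH1. No member was called at 0.1, 0.3 or 1 µM, where 0% of genes were called, nor at 3 µM, where 0.118% were. At these 4 doses 0, 1, 2 and 5 members had an unadjusted p under 0.05 in edgeR. So had 796, 981, 1057 and 1635 of the 17793 genes tested, and DESeq2 called 0 members at each dose. At 6 µM 1 member was called higher, where 1.07% of all genes were called and 0.866% were called higher. There was also 1 member at 10 µM, where these shares were 1.41% and 1.03%. The 15 µM dose gave 2 members, with shares of 2.76% and 1.97%, and 30 µM gave 2, with shares of 7.05% and 3.86%. No member was called lower at any dose. The median of the members was 0.26 at 6 µM and 0.29 at 30 µM, against 0.00 over all genes at both.

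BACH1 was called at 15 µM, where its libraries had 39.2, 40.8 and 41.9 CPM, all above the 3 vehicle libraries. The log2 fold change was 0.49 (SE 0.12, adjusted p = 0.0216). Without the low vehicle library 1 it was 0.28 (adjusted p = 0.103), and the call was also lost without 15 µM library 2 (0.0676) or 3 (0.0828). With only the 2 conditions in the fit it was lost too (0.519). At 6 µM it stood at 0.47 (adjusted p = 0.0529) and at 10 µM at 0.45 (0.061). DESeq2 called it at both doses (0.0159 and 0.0231), as did edgeR with no filter on low counts (0.000143 and 0.000516). Without vehicle library 1 it was 0.26 at 6 µM and 0.23 at 10 µM (adjusted p = 0.139 and 0.183). Without vehicle library 2 or 3 it was called at both doses (0.58 and 0.60 at 6 µM, 0.55 and 0.58 at 10 µM). At 30 µM it had 37.6, 39.7 and 28.6 CPM and was not called (0.29, adjusted p = 0.17), but was without library 3 of that dose (0.42, adjusted p = 0.0474). It was also called there with no filter on low counts (0.29, adjusted p = 0.0494). Without vehicle library 1 it was 0.07 (adjusted p = 0.703). Its slope was 0.08 (SE 0.03, adjusted p = 0.0387), and this call was lost in 11 of 24 fits that left out 1 AA132 library (0.0529 to 0.0925), namely any library of 0.1, 0.3 or 15 µM and library 2 of 10 or 30 µM.

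No small MAF gene was called against vehicle at any dose, and only MAFG was called in the slope. MAFG (chromosome 17, 81918270 to 81927735, minus strand) had 5.51, 6.27 and 7.05 CPM in vehicle and 8.90, 6.67 and 7.63 CPM at 30 µM, and the groups overlapped. At 3 and 15 µM every MAFG library was above every vehicle library. MAFG was not called at either dose (0.26 and 0.33, adjusted p = 0.551 and 0.181 in edgeR). Its slope was 0.11 (SE 0.04, adjusted p = 0.045). The call was lost with no filter on low counts (0.0612), without the 30 µM dose (0.117) and without both libraries that stood apart (0.0566). It was also lost in 12 of 24 fits that left out 1 library (0.0502 to 0.106). These left out library 2 of 0.1 µM, 1 or 2 of 0.3 µM, or any of 1 µM. The others left out library 1 of 6 µM, 2 of 10 µM, or 1 or 3 of 15 or 30 µM. MAFK (chromosome 7, 1530702 to 1543043, plus strand) ranged from 9.60 to 14.4 CPM over the AA132 libraries with a slope of 0.02 (SE 0.04). MAFF (chromosome 22, 38200767 to 38216507, plus strand), which is induced by many stresses in other settings, had its highest mean at 6 µM, 0.902 CPM against 0.424 CPM in vehicle. That difference of 1.08 (SE 0.38, adjusted p = 0.2) was not called, and neither was any other of MAFF.

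NFE2L2 itself was not called higher at any dose of AA132. Its mean was below vehicle at each dose, and the lowest mean came at 3 µM, with 76.1, 80.8 and 91.0 CPM against 88.8, 116 and 102 CPM. The lowest single library, at 72.8 CPM, was library 1 of 1 µM, which stood apart. The groups overlapped, and the log2 fold change of -0.31 (SE 0.09, adjusted p = 0.247) was not called. At 30 µM the libraries had 92.7, 106 and 101 CPM, within the vehicle range (-0.04, 95% interval -0.22 to 0.15). At 6 µM its libraries had 86.2, 84.5 and 84.5 CPM, below every vehicle library, and it was not called (-0.27, adjusted p = 0.176). Without vehicle library 1, the low one, NFE2L2 was called lower at 3 µM (-0.41, adjusted p = 0.0323) and 6 µM (-0.36, adjusted p = 0.0222). With all libraries and no filter on low counts, NFE2L2 was called lower at 3 µM (-0.32, adjusted p = 0.02). Without the 2 libraries that stood apart it was -0.39 at 3 µM (adjusted p = 0.0584). Its slope was -0.01 (95% interval -0.08 to 0.05), since the values went down and then up again. NFE2L1 had a slope of 0.01 (95% interval -0.02 to 0.05), and its dose means lay between 248 and 266 CPM.

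The effect of AA147 was measured at 10 µM against vehicle. None of the 8 members was called, and 0.0225% of all genes were. In edgeR 2 members, SQSTM1 and NFE2L2, had an unadjusted p under 0.05, as had 1211 of the 17793 genes tested. DESeq2 called 0 members. SQSTM1 had 264, 227 and 232 CPM against 229, 189 and 196 CPM, with 2 of 3 libraries above every vehicle library. The log2 fold change was 0.24 (SE 0.08, 95% interval 0.07 to 0.40, adjusted p = 0.532). NFE2L2 had 88.5, 90.2 and 90.3 CPM, close to the lowest vehicle library (-0.19, SE 0.09, adjusted p = 0.713).

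AA132 and AA147 were compared with each other at the matched dose of 10 µM and the same 6 h, the only dose at which both were measured, so 1 pair of compounds was compared. No member was called, where 0.0674% of all genes were, and DESeq2 called 0 members. In edgeR 1 member had an unadjusted p under 0.05, as had 1425 of the 17793 genes tested. SQSTM1 had 257, 296 and 285 CPM under AA132 and 264, 227 and 232 CPM under AA147, and the groups overlapped through library 1 of each. The difference was 0.21 with a 95% interval of 0.05 to 0.37 (adjusted p = 0.443). It did not pass the threshold, which does not show that the compounds act alike on this gene. For KEAP1 the difference was 0.15 (-0.02 to 0.32), for BACH1 0.21 (-0.04 to 0.46), for NFE2L2 -0.01 (-0.20 to 0.18) and for NFE2L1 0.05 (-0.06 to 0.16). The intervals of the small MAF genes were wider, at -0.13 to 0.41 for MAFG, -0.16 to 0.42 for MAFK and -0.02 to 1.53 for MAFF.

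The highest dose of AA132 was set directly against Tg, which tests the difference between their effects without vehicle. The treatments were separated by 4 members, in opposite directions: NFE2L2 and NFE2L1 were lower under AA132, and KEAP1 and SQSTM1 were higher. The count was 2 higher and 2 lower of 8, where 29.8% of all genes were called, 14.3% higher and 15.5% lower. SQSTM1 had 331, 303 and 341 CPM against 182, 181 and 188 CPM, far apart, with a difference of 0.82 (SE 0.08, adjusted p = 9.1e-10). KEAP1 had 82.3, 78.3 and 84.0 CPM against 65.1, 64.7 and 61.3 CPM, also apart, with a difference of 0.36 (SE 0.09, adjusted p = 0.00151). NFE2L2 differed by -0.52 (SE 0.09, adjusted p = 4.29e-05) and NFE2L1 by -0.25 (SE 0.06, adjusted p = 0.000659), with no overlap of libraries for either. The 4 calls held in all 40 alternative settings. BACH1 differed by -0.09 (95% interval -0.34 to 0.16).

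**Figure D3:**
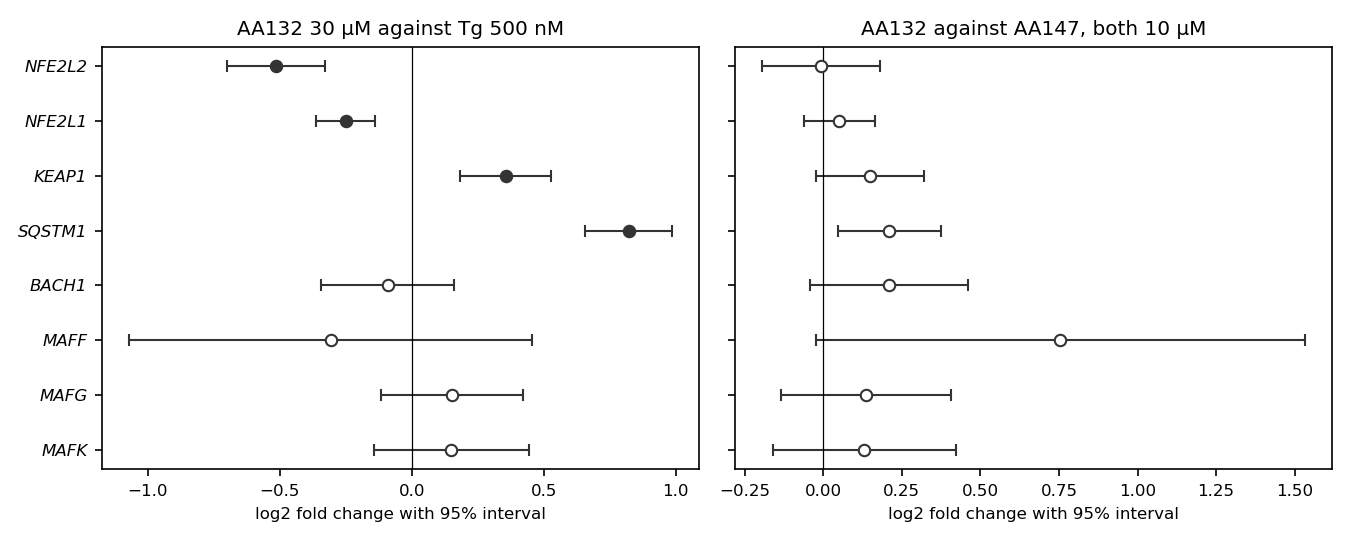
Log2 differences of the 8 genes with 95% intervals for AA132 at 30 µM against Tg at 500 nM (left) and for AA132 against AA147, both at 10 µM (right). Filled points passed an adjusted p of 0.05. On the left NFE2L2 (-0.52) and NFE2L1 (-0.25) lie below 0 and KEAP1 (0.36) and SQSTM1 (0.82) above, and no point is filled on the right.

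The genes that NRF2 acts on were described with a list of 28 targets, of which all were tested. Under AA132 0 were called at 3 µM, where 0.118% of all genes were, or 3 higher without the 2 libraries that stood apart. Then 7 were called higher at 6 µM and 9 at 10 µM, then 12 at 15 µM and 13 at 30 µM, with 0 lower at each. Of all genes, 0.866%, 1.03%, 1.97% and 3.86% were called higher at these doses. Without 6 µM library 2 the count at 6 µM was 4, and without 10 µM library 2 that at 10 µM was 5. The list median went from 0.18 at 6 µM to 0.36 at 30 µM, against 0.00 over all genes. Over the slope 17 rose and 1, TALDO1, fell, where 18.7% of all genes were called and 9.83% were called higher. Without the 2 libraries that stood apart 15 rose. HMOX1 had the largest slope of the list, 1.81 (SE 0.12, adjusted p = 4.7e-12). OSGIN1, SLC7A11, the cystine transporter gene, and GCLM, a subunit of the glutathione synthesis enzyme, followed at 1.06, 1.00 and 0.57. The call of TALDO1 (-0.06, adjusted p = 0.0444) was lost in 13 fits that left out 1 AA132 library (0.05 to 0.136). These rises came without a called rise of NFE2L2 at any dose. Under AA147 0 of 28 were called, where 0.0225% of all genes were, with a median of 0.17. Without the 2 libraries that stood apart, which belong to neither condition of this comparison, 3 were called higher. Shares of all genes called were not set beside the list counts from fits that left libraries out.

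Tg split the same list. It raised 7 targets and lowered 8, where 31.2% of all genes were called and 16.2% were called higher. The list median was 0.01. Over fits that left out 1 Tg or vehicle library, 6 to 8 were raised and 6 to 9 lowered. SLC7A11, which the integrated stress response also drives, rose by 3.65 (SE 0.30, adjusted p = 9.62e-12), and HMOX1 by 0.96 (SE 0.33, adjusted p = 0.0256). The call of HMOX1 was lost without Tg library 2 or 3 or vehicle library 2 or 3 (adjusted p from 0.0535 to 0.0917). The peroxiredoxin gene PRDX1 fell by 1.18 (SE 0.07, adjusted p = 1.05e-14) and the thioredoxin gene TXN fell by 0.39 (adjusted p = 0.00328). NFE2L2 was called higher in the condition where the list was split, and not in the dose series, where 17 of 28 targets rose and 10 were not called. Whether the transcript level of NFE2L2 is related to the changes of the listed targets was not tested. AA132 at 30 µM against Tg gave 19 targets higher and 1 lower, where 29.8% of all genes were called and 14.3% were called higher. The list was chosen with results of these data known and is no independent evidence of a direction.

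**Figure D4:**
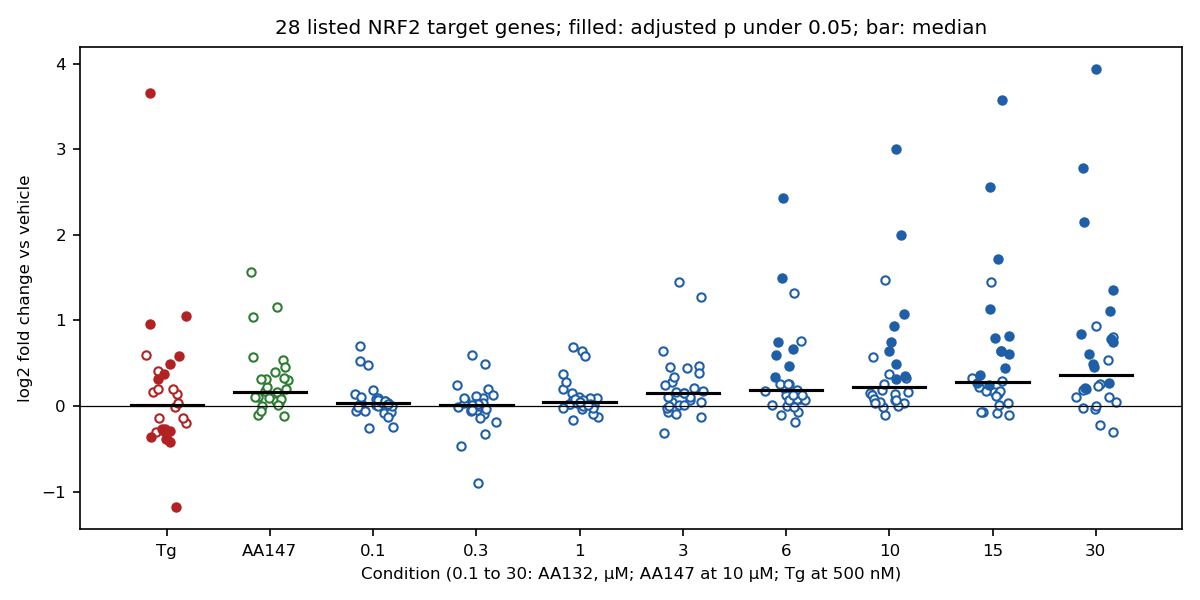
Log2 fold change against vehicle of the 28 listed NRF2 target genes (points) under Tg, AA147 at 10 µM and AA132 at 0.1 to 30 µM, with the list median as a bar. Points are filled where the adjusted p was under 0.05. The median reaches 0.36 at 30 µM AA132 with 13 filled points, all above 0, while Tg has 7 filled above and 8 below.

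Other genes of the pathway were described with lists of their own. Of 18 genes that control KEAP1, NRF2 or NRF1 protein, Tg raised 6 and lowered 4, where 31.2% of all genes were called, and AA132 at 30 µM raised 1 and lowered 0, where 7.05% were. Without vehicle library 1 Tg raised 4 of them. Over the slope 3 rose (SYVN1, VCP and TRIM21) and 1, FBXL17, fell, where 18.7% of all genes were called. AA132 at 30 µM against Tg gave 3 higher and 6 lower, where 29.8% of all genes were called. The gene called in both was SYVN1, an ER ubiquitin ligase that acts on NRF1 and NRF2, with a log2 fold change of 1.78 under Tg (SE 0.07, adjusted p = 4.47e-19) and 0.46 at 30 µM (SE 0.07, adjusted p = 0.000107). The segregase VCP, which extracts NRF1 from the ER membrane, rose by 0.33 under Tg (adjusted p = 2.58e-05). Of 31 proteasome subunit genes, targets of NRF1, Tg raised 1 (PSMA5, 0.18, adjusted p = 0.0466) and lowered 11, where 31.2% of all genes were called. Among the 11 were PSMD1 (-0.54, adjusted p = 1.86e-08) and PSMB5 (-0.42, adjusted p = 2.45e-05). The call of PSMA5 was lost without any 1 of the Tg libraries or without vehicle library 2 or 3 (adjusted p from 0.0784 to 0.311). The median of this list under Tg, where NFE2L1 rose, was -0.06. At 30 µM AA132 0 were higher and 1, PSMC3, was lower (adjusted p = 0.0437), where 7.05% of all genes were called. The PSMC3 call was lost without 30 µM library 1 or 2 or vehicle library 1 (0.13 to 0.287). Over the slope 4 rose and 0 fell, where 18.7% of all genes were called: PSMC2 (0.10, adjusted p = 0.00327), PSMD14, PSMD7 and PSMA1. The call of PSMA1 (0.06, adjusted p = 0.0383) was lost without both libraries that stood apart (0.0527) and in 8 fits that left out 1 AA132 library (0.0502 to 0.114). AA132 at 30 µM against Tg gave 9 higher and 2 lower, where 29.8% of all genes were called.

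SQSTM1 also belongs to the autophagy receptors, of which 4 others were listed. Tg raised 3 of 4, where 31.2% of all genes were called: CALCOCO2 by 0.64 (SE 0.07, adjusted p = 9.88e-09), TAX1BP1 by 0.43 (adjusted p = 2.74e-05) and OPTN by 0.42 (adjusted p = 9.52e-06). At 30 µM AA132, where SQSTM1 had its largest rise, 0 of 4 were called and their median was 0.08, where 7.05% of all genes were called. In the slope CALCOCO2 rose, as SQSTM1 did, by 0.08 per 10-fold dose (SE 0.02, adjusted p = 0.0163). The other 3 were not called, where 18.7% of all genes were. AA132 at 30 µM against Tg gave 0 higher and 3 lower, where 29.8% of all genes were called. Of 6 relatives of the CNC and MAF families, 5 were tested and NFE2 was not. NFE2L3, which encodes a CNC factor related to NRF1 and NRF2, fell by 0.54 under Tg (adjusted p = 6.61e-08). It fell by 0.23 at 30 µM (adjusted p = 0.0277), and the other 4 were not called in either. Its call at 30 µM was lost without 30 µM library 1 or 3 or vehicle library 2 or 3 (0.0668 to 0.107). Over the slope NFE2L3 also fell (-0.07, SE 0.02, adjusted p = 0.0163), where 18.7% of all genes were called. This slope call held without any 1 AA132 library and without both libraries that stood apart. NFE2L3 moved opposite to NFE2L1 and NFE2L2 under Tg.

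The pattern of each member over the 11 condition means was set against 14010 other genes with a mean of at least 1 CPM, as a description, since the means share libraries and the same treatments. KEAP1 was most like TNFRSF12A (r = 0.99), SRXN1 (0.95) and CYP2U1 (0.95). SQSTM1 was most like CYP2U1 (0.98), NEU1 (0.98) and TRIM16L (0.97). SRXN1, which encodes sulfiredoxin, and TRIM16L are on the NRF2 target list. KEAP1 and SQSTM1 had r = 0.93 with each other, and 0.92 without Tg. For NFE2L2 the closest were DCAF11 (0.97), MAP2K5 (0.97) and AMZ2 (0.97), and for NFE2L1 ZFPL1, BET1L and KCMF1 (each 0.99). Without Tg these were 0.90, 0.87 and 0.89 for NFE2L2 and 0.95, 0.89 and 0.86 for NFE2L1. NFE2L2 and NFE2L1 had r = 0.90 with each other over 11 conditions and 0.44 over the 10 without Tg. BACH1 and MAFF had r = 0.80, both with and without Tg. BACH1 was closest to RAB8B (0.94), MAFG to IBA57 (0.94), MAFK to RAB11FIP4 (0.96) and MAFF, at its low counts, to RAP1B (0.90).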

How the data were processed

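The authors' deposited table gives expected counts per gene, read totals on a linear scale per the file headers, with 0.009 in place of 0. The submitters' processing notes name GRCh38.p7; the aligner, counter, annotation and use of strand are not given in the sources used here, so reads of overlapping genes on opposite strands cannot be told apart. The 38074 entries were summed by name to 38021 genes, counts were rounded, and 0.009 was set to 0. Genes were tested with edgeR 4.0.16 (quasi-likelihood F-test, TMM scaling, filterByExpr) in R 4.3.3, with all 11 conditions in 1 fit and no replicate block, with Benjamini-Hochberg adjustment over all genes tested and a threshold of 0.05. The slope was fitted on log10 dose over the AA132 libraries. CPM values use TMM-scaled library sizes. Alternatives were another scaling, no filter, DESeq2 1.42.0, fits of 2 conditions, a block, unrounded counts, each library left out and, chosen after seeing the data, 2 libraries that stood apart left out together. The test was checked on simulated data with 200 changed genes. At 30 µM against vehicle it called 3.5% of 1.2-fold, 21% of 1.3-fold and 82% of 1.5-fold changes. The slope called 17.5%, 60% and 97.5% of such changes over the dose range. A member not called may thus still have changed by a small amount. The members and gene lists were chosen with earlier results of these data known. The named genes are the members, up to 4 called genes in each direction from each list, and the 3 closest patterns per member. MAFK has no promoter entry in the RefSeq table used.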

Additional observations from a re-analysis of the deposited data

How the results depend on the processing

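No called member value changed sign in any setting, and 55 of 4082 recomputed values, none called in either setting, did. The number of members called at 3 µM AA132 was 2 with no filter on low counts, NFE2L2 lower and BACH1 higher. At 6 µM it was 2 with RLE size factors, 2 with no filter, 2 in DESeq2 and 0 with only the 2 conditions in the fit. At 10 µM it was 2 with no filter, 2 in DESeq2 and 0 with only the 2 conditions, where fewer libraries estimate the spread. With only the 2 conditions it was 2 for Tg, 0 at 15 µM and 1 at 30 µM. With no filter it was 3 at 30 µM and 3 for the slope. Over fits that left out 1 library, the count ranged from 2 to 4 for Tg, 0 to 1 at 3 µM, 0 to 3 at 6 µM, 1 to 2 at 10 µM, 1 to 2 at 15 µM, 2 to 3 at 30 µM and 2 to 4 for the slope, and did not move in the other comparisons. The library number as a replicate block left the count of members called as it was in all comparisons (3 for Tg, 2 at 30 µM, 4 for the slope). The labels give these numbers no meaning, and in no comparison did all 3 same-numbered pairs correlate above 0.1. MAFF had 11 to 43 counts a library and MAFG 191 to 339, while the common biological coefficient of variation was 9.09%. What limits the calls of each member was not tested. The calls of NFE2L2 at 3 and 6 µM changed with vehicle library 1, and that at 3 µM also with no filter. The cause of the changes with scaling, filter and tool was not tested. Shares of all genes called in each setting were not set beside these member counts. The counts therefore do not tell whether the members moved apart from other genes.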

Other observations

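AA132 10 µM library 1 was the lowest of its dose for 7 of 8 members, all but MAFG, and for the targets HMOX1 and GCLM. It had 257 CPM of SQSTM1 against 296 and 285 CPM, 66.3 CPM of KEAP1 against 82.2 and 76.3 CPM, and 0.445 CPM of MAFF against 0.999 and 1.02 CPM. NFE2L1 had 238 CPM against 272 and 269 CPM, BACH1 37.3 CPM against 41.3 and 39.4 CPM, and MAFK 10.2 CPM against 13.6 and 11.4 CPM. It had 78.8 CPM of NFE2L2 against 89.9 and 99.0 CPM, 70.7 CPM of HMOX1 against 126 and 118 CPM, and 36.6 CPM of GCLM against 46.1 and 43.4 CPM. SLC7A11 did not follow, with 20.03 CPM against 18.9 and 21.4 CPM. The difference was not limited to the members. Over the whole table the chi-square per degree of freedom was 39.1 and 36.4 for library 1 against libraries 2 and 3. Between libraries 2 and 3 it was 6.89. How many of all genes were lowest in library 1 was not counted.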
